A study of Mus musculus with 3 samples.

Results

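The genes described here are markers of macrophages and other myeloid cells, along with Spi1, which encodes PU.1, in mouse mammary tumors made to express GATA-3. The genes were 10, chosen by symbol (Spi1, Csf1r, Cd68, Adgre1, Cd14, Lyz2, Mrc1, Msr1, Tyrobp and C1qa), and every probe that the array's annotation assigns to one of them was used. Probes were found for 7 of the 10 genes, of 15056 named genes on the arrays; Csf1r, Cd68 and C1qa were not analysed here. The 7 genes had 12 probes: 1 each for Spi1, Cd14, Mrc1 and Tyrobp, 2 each for Adgre1 and Msr1, and 4 for Lyz2.

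Each of 3 two-colour arrays compared 2 kinds of tumor outgrowth. Both came from cultured primary carcinoma cells of MMTV-PyMT mice, in which a viral promoter active in mammary epithelium drives the polyoma middle T oncogene, and both were grown for 6 weeks in wild-type mice, in mammary fat pads cleared of their own epithelium. In one, the carcinoma cells carried the PMIG retrovirus with full-length GATA-3 and a GFP marker; in the other they carried the empty vector. RNA of whole tumors was measured, and the virus was given to the cultured carcinoma cells, not to the host mice. The labels and design text give no age, no strain and nothing on pooling of animals.

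PU.1 is an ETS-family transcription factor that is required for macrophages to form, and it binds purine-rich sites around a GGAA core in the control regions of most macrophage genes. Macrophages depend on the growth factors Csf1 and Il34, which both signal through Csf1r. In mammary tumors of the MMTV-PyMT model, macrophages are an abundant host cell type and are known for a part in invasion and metastasis. Their surface carries receptors for debris, sugars and bacterial products, several of which signal through small adaptor chains such as Tyrobp.

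All values are log2 ratios of the GATA-3 tumor over the empty-vector tumor with each array's median set to 0, so that 0 means no difference and 1 means a doubling. A ratio holds no level, so neither the abundance of these RNAs nor the cell type composition of the tumors can be read from it. The direction of the ratio is likely rather than certain: the labels put the GATA-3 tumor in the red channel of every array, and the Gata3 probe was positive at 0.74, 0.86 and 0.79 on arrays 1, 2 and 3. With the opposite sign, every rise and fall below would swap. The dyes ran the same way on all arrays, so a dye effect of a probe cannot be told apart from a difference between the tumors. Array 1 had another title prefix than arrays 2 and 3, and Pearson's r across probes, which are not independent replicates, was 0.77 and 0.78 between array 1 and the others and 0.94 between arrays 2 and 3. Whether the arrays held separate animals is not given, so p-values rest on the spread between these 3 arrays, which may be technical. The test used below (limma) also draws the spread of each row toward that of all rows. Its p-values therefore do not measure the spread of 1 gene alone. In RNA of whole tumors, fewer cells of a type and less RNA per cell cannot be told apart.

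"Rose" and "fell" are used for a mean ratio that passed an adjusted p of 0.05 in limma, fitted across all 31059 gene rows (15056 named genes with their probes averaged, and 16003 unnamed probes) with Benjamini-Hochberg adjustment. Of the 7 genes, Adgre1 and Msr1 rose, Spi1 fell and 4 did not pass. Over all gene rows 55.8% passed, 31.7% upward and 24.1% downward, so a passing gene is common on these arrays, and 3 of 7 does not set the myeloid genes apart. The median of the 7 mean ratios was 0.05, against 0.02 for all gene rows. By single probe, 6 of the 12 passed, 3 in each direction, against 57.3% of 38975 probes (31.4% upward and 25.9% downward).

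**Figure D1:**
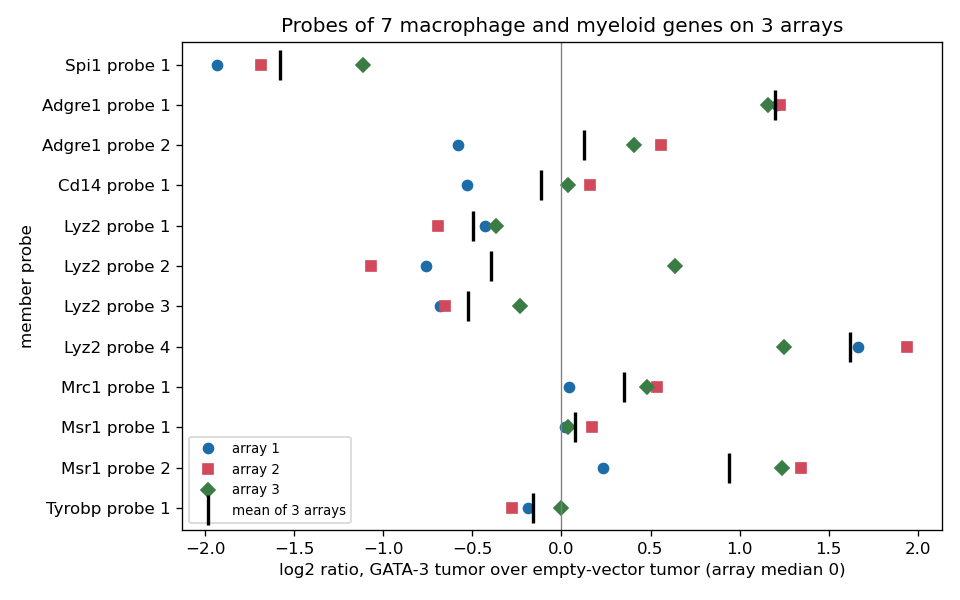
Log2 ratio (x axis, GATA-3 tumor over empty-vector tumor) of each of the 12 probes (y axis) on arrays 1, 2 and 3, with the mean as a black bar. Spi1 lies between -1.93 and -1.12 on all 3 arrays, and probe 4 of Lyz2 lies at 1.25 or above on all 3 while the means of the other Lyz2 probes are negative.

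Spi1, the transcription factor of the set, had the most negative ratio of the 7 genes. Its single probe gave -1.93, -1.69 and -1.12 on arrays 1, 2 and 3. All 3 arrays were well below 0, array 3 least so. The mean was -1.58 ± 0.42 (SD, n = 3), a 2.99-fold lower value (limma, adjusted p = 0.00309). Without array 1, 2 or 3 in turn the mean was -1.40, -1.52 and -1.81 and the call held. Among all gene rows 46 had a mean this low or lower (0.148%), and 11 of these, Spi1 included, were named genes. The result rests on 1 probe, and no second Spi1 probe was there to set beside it.

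By the distance between their values on the 3 arrays, the named genes nearest to Spi1 among 15055 were Rpl29 at a distance of 0.15, Rpl35 at 0.30 and Miox at 0.30. Rpl29 and Rpl35 encode proteins of the large ribosomal subunit, and Miox encodes myo-inositol oxygenase, an enzyme of the kidney. Their mean ratios were -1.52, -1.56 and -1.47, each from 1 probe. No other of the 7 myeloid genes was near: the next most negative, Tyrobp, was at -0.16.

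**Figure D2:**
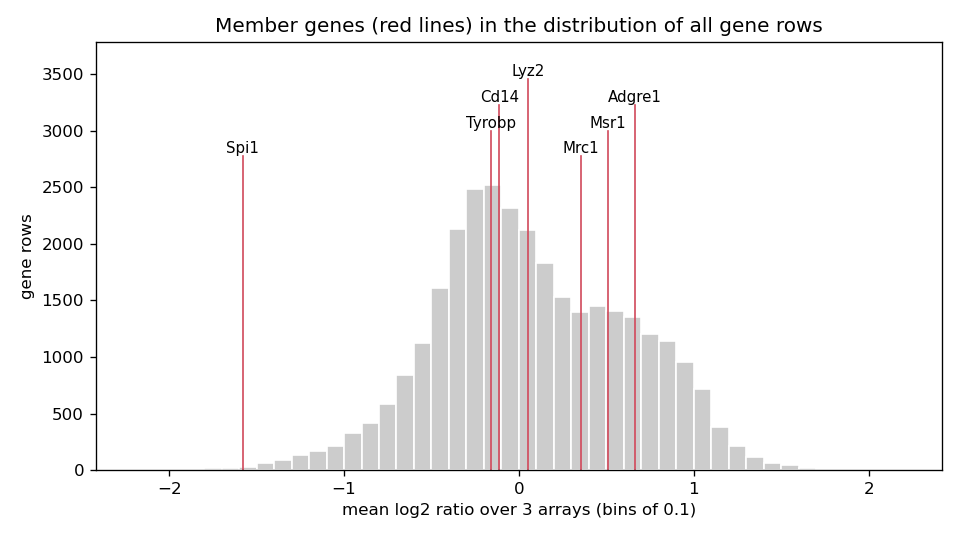
Distribution of the mean log2 ratio over 3 arrays (x axis, bins of 0.1) for all 31059 gene rows (y axis, number of rows), with the 7 genes as red lines. Spi1 at -1.58 lies in the far negative tail, and the other 6 lie between -0.16 and 0.66, within the body of the distribution.

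The DNA upstream of 2 of the measured genes, Lyz2 and Mrc1, could be read from RefSeq's promoter table (mouse build GRCm38.p6), and is shown because PU.1, the product of Spi1, is known to act at macrophage promoters through sites of this kind. The 5 other measured genes are not shown. The sequences are the 250 bases before the gene's start, 5′ to 3′ on the gene's own strand, and capitals mark a match to AGGAAGT, the core of the PU.1 site, or its reverse complement ACTTCCT.
Lyz2, chr10:117282273-117282522, minus strand: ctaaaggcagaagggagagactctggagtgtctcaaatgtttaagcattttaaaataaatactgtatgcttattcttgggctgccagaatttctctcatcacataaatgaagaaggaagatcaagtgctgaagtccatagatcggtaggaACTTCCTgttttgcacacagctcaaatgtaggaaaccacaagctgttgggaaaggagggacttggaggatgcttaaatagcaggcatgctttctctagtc
Mrc1, chr2:14229164-14229413, plus strand: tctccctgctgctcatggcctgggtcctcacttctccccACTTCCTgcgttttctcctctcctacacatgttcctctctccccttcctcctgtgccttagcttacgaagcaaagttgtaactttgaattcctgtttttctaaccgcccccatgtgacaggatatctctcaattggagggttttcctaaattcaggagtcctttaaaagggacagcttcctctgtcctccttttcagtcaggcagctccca
Each window held 1 match, on the strand opposite to the gene, 94 bases before the start in Lyz2 and 205 in Mrc1. Of all 32851 windows in the table, 7.69% held a match on either strand. Letters that match describe the sequence and do not show a bound site. Neither gene passed the test, as the next paragraphs show.

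Adgre1 encodes the macrophage surface protein known as F4/80, the standard marker of mouse macrophages. Probe 1 gave 1.21, 1.23 and 1.16 on arrays 1, 2 and 3, close together and far above 0. The mean of probe 1 was 1.20 ± 0.04 (SD, n = 3), a 2.30-fold higher value (limma over probes, adjusted p = 0.00319), and 1.65% of all probes were as high. Probe 2 gave -0.58, 0.56 and 0.41, negative on array 1 and positive on the other two. Its mean of 0.13 ± 0.62 did not pass (adjusted p = 0.663), and it turned to -0.0875 without array 2 and -0.013 without array 3, but passed without array 1 (0.48, adjusted p = 0.00936). On each array probe 1 was the higher of the 2. Averaged, Adgre1 rose by 0.66 ± 0.31 (adjusted p = 0.0123), but the call rested on probe 1 (adjusted p = 0.666 with probe 2 alone) and was lost without array 3 (0.60, adjusted p = 0.0796).

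The scavenger and lectin receptors of the set, Msr1 and Mrc1, had positive means. Msr1 encodes the class A scavenger receptor, which takes up modified lipoproteins and debris. Msr1 probe 1 gave 0.02, 0.17 and 0.04, close to 0 on all 3 arrays. Msr1 probe 2 gave 0.23, 1.34 and 1.24, high on arrays 2 and 3 and near probe 1 on array 1. Probe 2 alone passed (0.94 ± 0.61, adjusted p = 0.0218; 0.0563 without array 2 and 0.102 without array 3), and probe 1 did not (0.08 ± 0.08, adjusted p = 0.484). Averaged, Msr1 rose by 0.51 ± 0.34 (limma, adjusted p = 0.0330); this call was lost without array 2 (0.38, adjusted p = 0.119), without array 3 (0.44, adjusted p = 0.161) and with probe 1 alone (adjusted p = 0.465).

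Mrc1 encodes the mannose receptor CD206, commonly used to mark macrophages in an alternatively activated or tissue-resident state. Its single probe gave 0.04, 0.53 and 0.48, near 0 on array 1 and higher on both other arrays. The mean of 0.35 ± 0.27 did not pass (limma, adjusted p = 0.0600; 95% interval 0.04 to 0.67, not adjusted). On arrays 2 and 3 alone the mean was 0.51 and passed (adjusted p = 0.00557).

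Lyz2, lysozyme M, is an antibacterial enzyme of macrophages and neutrophils and the gene whose promoter drives Cre in many myeloid mouse models. Its 4 probes went both ways. Probe 1 gave -0.43, -0.69 and -0.37 and probe 3 gave -0.68, -0.65 and -0.23, negative on every array. Both passed, at -0.50 ± 0.17 (limma over probes, adjusted p = 0.0123) and -0.52 ± 0.25 (adjusted p = 0.0176), though both were lost without array 2 (adjusted p = 0.0598 and 0.0671) and probe 1 also without array 3 (adjusted p = 0.0558). Probe 2 gave -0.76, -1.07 and 0.64, negative on arrays 1 and 2 and positive on array 3, with a mean of -0.40 ± 0.91 (adjusted p = 0.346). Without array 3 its mean was -0.91 and passed (adjusted p = 0.0263).

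Probe 4 of Lyz2 stood far from the rest of the gene, at 1.67, 1.94 and 1.25. Its mean was 1.62 ± 0.35 (limma over probes, adjusted p = 0.00319), a 3.07-fold higher value. Counting probe 4 itself, 38 of 38975 probes (0.0975%) had a mean this high or higher. On each array probe 4 was above each of the other 3 probes. The gene's average of 0.05 ± 0.24 did not pass (adjusted p = 0.724), and its sign depended on how the probes were combined. The average was -0.34 with the median of the probes and -0.47 without probe 4, and neither passed (adjusted p = 0.172 and 0.0672). It also turned to -0.0845 without array 3. All 4 probes are annotated to the same RefSeq transcript, and where in it each probe lies was not analysed here.

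Lyz2 has a close copy, Lyz1, the lysozyme of intestinal Paneth cells, and array probes can bind both transcripts. Lyz1 fell, with -0.68, -0.95 and -0.56 on arrays 1, 2 and 3, a mean of -0.73 ± 0.20 (limma, adjusted p = 0.00489). Its 2 probes had means of -1.19 and -0.27, on the side of Lyz2 probes 1 to 3 and opposite to probe 4. By single probe, these 2 did not both pass. Which of the copies each probe detected was not tested.

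**Figure D3:**
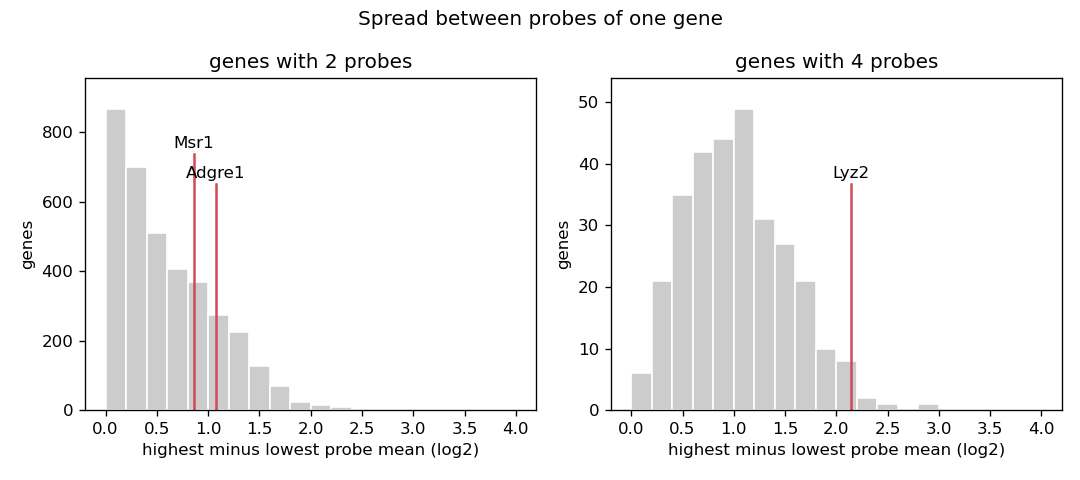
Spread between probes of one gene (x axis, highest minus lowest probe mean in log2 units; y axis, number of genes) for the 3599 genes with 2 probes (left) and the 298 with 4 (right), with red lines at Msr1 (0.86), Adgre1 (1.07) and Lyz2 (2.14). Lyz2 lies at the far right of its distribution, and Msr1 and Adgre1 lie right of the middle of theirs.

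Disagreement between probes was common on these arrays, and the Lyz2 spread was near its upper end. The 4 Lyz2 probe means spanned 2.14, against a median of 1.01 over the 298 genes with 4 probes, and 3.02% of those genes spanned as much. The span was 1.07 for Adgre1 and 0.86 for Msr1, against a median of 0.48 over the 3599 genes with 2 probes; 17.6% and 27.6% of those genes spanned as much. Probes of opposite sign occurred in 44.9% of genes with 2 probes and 75.5% of genes with 4. Counting a gene only where each of its probes passed with the same sign left Spi1 alone of the 7, and Spi1 has 1 probe.

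Cd14 and Tyrobp lay close to 0. Cd14 is the co-receptor that hands bacterial lipopolysaccharide to Tlr4. Its probe gave -0.53, 0.16 and 0.04, negative on array 1 and slightly positive on the others, with a mean of -0.11 ± 0.37 (limma, adjusted p = 0.557; 95% interval -0.50 to 0.28). Without array 1 the mean turned to 0.10. Tyrobp, or DAP12, is the signalling chain of many activating receptors of myeloid and natural killer cells. It gave -0.19, -0.28 and -0.01, never positive and nearest to 0 on array 3, with a mean of -0.16 ± 0.14 (adjusted p = 0.197; 95% interval -0.39 to 0.08). Among all gene rows, 22.6% had a mean as close to 0.

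The 7 genes differed between the arrays in the same direction, though by unlike amounts. Each was lower on array 1 than in the mean of arrays 2 and 3, where 54.7% of all gene rows were. The difference was -0.63 for Cd14, -0.57 for Msr1, -0.53 for both Spi1 and Adgre1, -0.46 for Mrc1, -0.15 for Lyz2 and -0.05 for Tyrobp. A difference as low or lower was common for Lyz2 (35.0% of gene rows) and Tyrobp (48.2%). The median difference was -0.53 over the 7 genes and -0.03 over all gene rows. By probe it held for 9 of 12, and over 108 other myeloid genes, described next, it held for 50.9%, so it was not seen across myeloid genes at large. Array 1 is the only array of its title prefix, so a difference of the tumors on it and one of the array cannot be told apart. Across the 3 arrays, 5 of the 7 genes kept one sign, against 76.4% of gene rows.

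**Figure D4:**
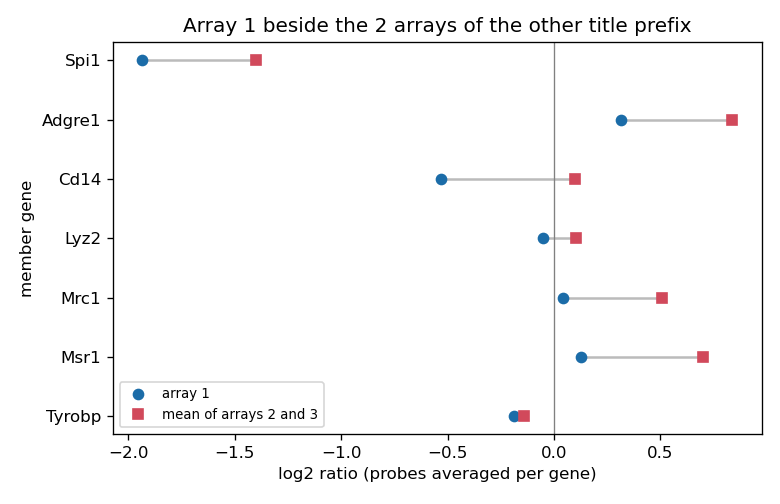
Log2 ratio (x axis, probes averaged per gene) of each of the 7 genes (y axis) on array 1 (circles) and in the mean of arrays 2 and 3 (squares), joined by a line. The circle is left of the square for each gene, by 0.63 for Cd14 and by 0.05 for Tyrobp.

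Other genes of the same pathways and of other myeloid cell types were taken from 11 lists with 124 genes, of which 108 were measured. Of these, 23 rose, 27 fell and 58 did not pass, so that 46.3% passed, against 55.8% of all gene rows; their median was -0.04. Leaving out each array in turn, 18 of the 50 kept the call in all 3 cases, 13 upward and 5 downward. That is 36.0% of the calls, against 47.1% of all calls on the arrays. Unless said otherwise, a gene named below as having risen or fallen is one of these 18, and p-values are those of the limma fit over all gene rows.

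Among transcription factors that act beside PU.1, 1 of 13 measured rose and 3 fell, with a median of -0.14. That is 30.8% passing, against 55.8% of all gene rows. Cebpb, a C/EBP factor that works with PU.1 at macrophage genes, fell almost as far as Spi1. Its single probe gave -1.58, -1.66 and -1.07 on arrays 1, 2 and 3, with array 3 again the nearest to 0. The mean was -1.44 ± 0.32 (adjusted p = 0.00307). Cebpa (-0.24), the lineage factor of the same family, Irf8 (-0.24), a PU.1 partner in monocytes, and Runx1 (-0.14), an upstream regulator of Spi1, did not pass. Spib, the closest relative of PU.1 in the list, was at -0.40, Gfi1 at -0.38 and Mitf at 0.62; these calls were lost without array 3 (adjusted p = 0.111, 0.0794 and 0.0540), and those of Spib and Gfi1 without array 2 too (0.0681 and 0.0792).

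The colony-stimulating factors and chemokines that sustain and recruit macrophages formed 1 list. Of its 11 genes, 1 rose and 1 fell, with a median of -0.04. The share that passed was 18.2%, against 55.8% of all gene rows. Csf1 was at -0.20 ± 0.05 (adjusted p = 0.0809) and Il34 at 0.21 ± 0.06 (adjusted p = 0.0747), neither past the threshold. The monocyte chemokine Ccl2 (-0.19) and its receptor Ccr2 (0.34) did not pass either. Cx3cl1, the ligand of the monocyte receptor Cx3cr1, rose by 0.59 ± 0.04 (adjusted p = 0.00395), with 0.55, 0.61 and 0.62 on the 3 arrays. Cx3cr1 itself was at 0.11. Csf2rb, the shared beta chain of the GM-CSF receptor, was at -0.37; its call was lost without array 2 or 3 (adjusted p = 0.0826 and 0.110).

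The list around Tyrobp holds receptors that pair with it or with the related chain Fcer1g, the adaptor chains Fcer1g and Hcst, the kinase Syk and the inhibitory antibody receptor Fcgr2b. Of its 13 genes 3 rose and 4 fell, with a median of -0.13. The share that passed, 53.8%, was near the 55.8% of all gene rows. Fcer1g rose by 0.96 ± 0.09 (adjusted p = 0.00307), at 1.06, 0.91 and 0.92, against the mean of -0.16 for Tyrobp. Of the Fc receptors for antibody, Fcgr4 was at 0.42, Fcgr1 at -0.28, Fcgr2b at -0.40 and Fcgr3 at -0.55. Trem2, a lipid-sensing receptor of tissue macrophages that pairs with Tyrobp, gave -0.74, -0.81 and -0.25. These 5 and Siglech passed but lost the call with an array left out; without array 2 the adjusted p was 0.0546 for Fcgr4, 0.183 for Fcgr1, 0.0530 for Fcgr2b, 0.104 for Fcgr3, 0.0597 for Trem2 and 0.0986 for Siglech. The kinase Syk, which these chains recruit, was at -0.03.

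In the complement list 1 of 7 rose and 4 fell, with a median of -0.34. That is 71.4% passing, against 55.8% of all gene rows. Itgam (CD11b), the alpha chain of complement receptor 3 and a common myeloid marker, fell by 1.11 ± 0.32 (adjusted p = 0.00362), with -0.77, -1.42 and -1.14 on the arrays. Itgax (CD11c), the alpha chain of complement receptor 4, rose by 0.74 ± 0.20 (adjusted p = 0.00463), with 0.77, 0.91 and 0.53. The beta chain that both share, Itgb2, was at -0.49, a call lost without array 3 (adjusted p = 0.0772). C1qb and C1qc, which encode the partner chains of C1qa in the C1q molecule, were at -0.36 and -0.28; both lost the call without array 2 (adjusted p = 0.143 and 0.120) or array 3 (0.0896 and 0.151), and C1qc without array 1 (0.0908).

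Of 11 scavenger and lectin genes measured, 4 rose and 3 fell, with a median of 0.13. The share that passed was 63.6%, against 55.8% of all gene rows. With each array left out, 4 of the 7 calls held. Clec10a, a galactose-type lectin of macrophages and dendritic cells, rose by 1.09 ± 0.15 (adjusted p = 0.00307), the galectin Lgals3 by 0.92 ± 0.12 (adjusted p = 0.00307) and Clec4n (dectin-2) by 0.69 ± 0.16 (adjusted p = 0.00442). Cd163, the hemoglobin scavenger receptor often named with Mrc1 as a marker of one macrophage state, fell by 0.69 ± 0.08 (adjusted p = 0.00340), while Mrc1 was at 0.35.

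Beside Lyz2, 2 of 10 phagosome and lysosome genes rose and 3 fell, with a median of 0.005. That is 50.0% passing, against 55.8% of all gene rows. Cathepsin S (Ctss), a protease of antigen-presenting cells, gave 1.46, 1.70 and 1.44 and had the highest mean of the 108 genes, 1.53 ± 0.14 (adjusted p = 0.00307). Lamp2, a lysosome membrane protein of most cells, rose by 0.61 ± 0.08 (adjusted p = 0.00402) on 3 probes that were all positive. Of the 3 that fell, Lyz1 was at -0.73 and Nos2 at -0.42. The call of Nos2 was lost without array 2 or 3 (adjusted p = 0.0547 and 0.0663). Near Cd14, of 9 pattern recognition genes 1 rose and 2 fell (33.3% passing), with a median of -0.08. Ly96, which completes the lipopolysaccharide receptor, was at 0.70 ± 0.38, with 1.02, 0.29 and 0.80, a call lost without array 3 (adjusted p = 0.0887). The 2 that fell were Tlr9, at -0.59, and Nlrp3, at -0.27. Both lost the call without array 2 (adjusted p = 0.133 and 0.118) or array 3 (0.178 and 0.225). Tlr4, the receptor itself, gave a mean of 0.29 and did not pass; it was picked out after its value had been seen.

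Activation genes and markers of other myeloid cells came next. The share that passed was 42.9% for activation genes, 58.3% for neutrophil, 44.4% for dendritic cell and 50.0% for mast cell and eosinophil genes. Over all gene rows it was 55.8%. Of 7 activation genes 3 rose and 0 fell. The cytokine gene Il6 led at 0.95 ± 0.17 (adjusted p = 0.00307). Il1b and Hmox1 lost their calls without array 2 (adjusted p = 0.0890 and 0.105) or array 3 (0.0886 and 0.149). Of 12 neutrophil genes 3 rose and 4 fell, and none of the 7 calls held with each array left out. Of 9 dendritic cell genes 1 rose and 3 fell. Among these the lectin Cd209a rose by 0.91 ± 0.23 (adjusted p = 0.00355), and Batf3, a factor of cross-presenting dendritic cells, fell by 0.93 ± 0.26 (adjusted p = 0.00378). Xcr1 and Ccr7 lost their calls without array 1, 2 or 3 (adjusted p from 0.0749 to 0.188). Of 6 mast cell and eosinophil genes 3 rose and 0 fell, and these held with each array left out: the mast cell tryptase Tpsb2 at 1.05 ± 0.08, the eosinophil granule gene Prg2 at 1.01 ± 0.18 and Ms4a2, the beta chain of the IgE receptor, at 1.01 ± 0.31 (adjusted p from 0.00307 to 0.00405). Fcer1a, the alpha chain of the same receptor, was at -0.07 and did not pass. Fcer1a was picked out after its value had been seen.

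Markers of the other cells of a tumor are given because their share of the RNA enters every ratio. Of all gene rows 55.8% passed, 31.7% upward and 24.1% downward. By list, 80.0% of leukocyte genes and 62.5% of epithelial genes passed. For lymphocyte, fibroblast and endothelial genes it was 71.4% each. Of 10 genes of all leukocytes, 4 rose and 4 fell, from -0.56 for Coro1a to 0.80 for Cd53, with list medians of 0.07, 0.11 and 0.20 on arrays 1, 2 and 3. Lymphocyte genes counted 3 up and 2 down of 7 (array medians 0.12, -0.21 and -0.05). Epithelial genes counted 1 up and 4 down of 8 (array medians -0.47, -0.53 and -0.22), and 3 did not pass. The keratins Krt18, Krt19 and Krt8 were at -1.24 ± 0.20, -1.23 ± 0.37 and -0.90 ± 0.32, and Cdh1 went the other way at 0.80 ± 0.05. Fibroblast genes counted 0 up and 5 down of 7 (array medians -0.49, -0.38 and -0.36), and endothelial genes 4 up and 1 down of 7 (array medians 0.56, 0.35 and 0.34). With an array left out, the share of all gene rows that passed became 63.6% (array 1), 36.7% (array 2) or 27.4% (array 3). A loss of calls without array 2 or 3 was therefore general. Without array 3, 1 of the 8 leukocyte calls held (Cd53; Coro1a had an adjusted p of 0.0633), as did 1 of 5 fibroblast calls, 3 of 5 endothelial, 3 of 5 lymphocyte and 5 of 5 epithelial calls. The leukocyte calls also came down to 5 without array 1 and 2 without array 2, and the lymphocyte calls to 3 without array 2. The part of these cells in the myeloid ratios was not tested.

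**Figure D5:**
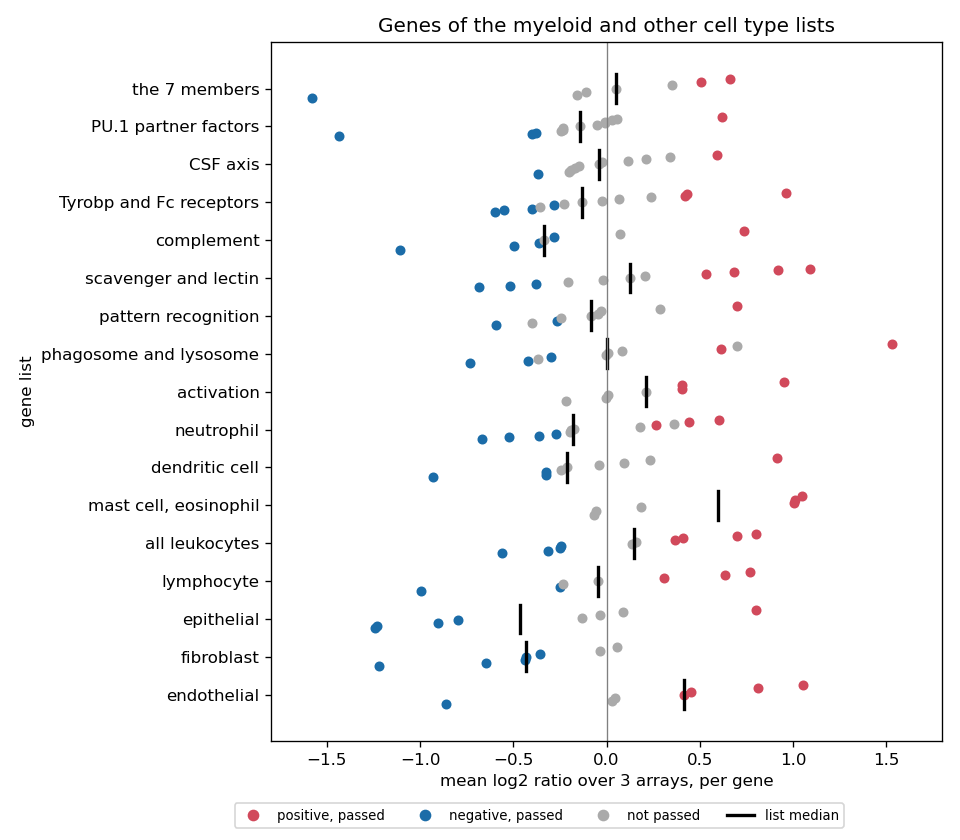
Mean log2 ratio over 3 arrays (x axis) of each measured gene of the 17 lists (y axis); red and blue points passed with a positive or negative ratio, grey points did not, and black bars are list medians. Most lists spread to both sides of 0, and Spi1 at -1.58 and Cebpb at -1.44 are the points furthest to the left.

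The promoter letters were also looked for in the other myeloid genes, to set the sequences beside the ratios. Of 85 measured list genes with a window, 18 (21.2%) held AGGAAGT on either strand in the 250 bases before the start, against 8.64% of 12171 measured genes with a window. The median ratio was -0.25 for the 18 genes and -0.03 for the other list genes; over all measured genes the medians with and without a match were both 0.02. The longer GAGGAAGT, which contains the shorter motif, was in 7 of the 85 (8.24%), against 2.64% of the measured genes and 2.44% of all windows. For it the medians with and without a match were -0.19 and -0.05 in the list, and 0.07 and 0.02 over all measured genes. The differences between medians were not tested for either motif. Of the 7, 2 rose and 2 fell. These 4 are shown, with 30 bases on the gene's strand in GRCm38.p6 and the motif or its reverse complement in capitals, since they carry the same letters and opposite ratios.
Fcgr4, chr1:171018891-171018920, plus strand: taaggctatttACTTCCTCtcttctagtca
Prtn3, chr10:79879561-79879590, plus strand: caaactggaagGAGGAAGTgggacccacag
C1qc, chr4:136893091-136893120, minus strand: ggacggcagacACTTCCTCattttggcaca
Mpo, chr11:87793549-87793578, plus strand: gtggagagagaGAGGAAGTtgcctttgtcc
Fcgr4, an antibody receptor, was at 0.42 ± 0.10 and Prtn3, a neutrophil protease, at 0.44 ± 0.18 (limma, adjusted p = 0.0119 and 0.0171). C1qc was at -0.28 ± 0.13 and Mpo, the neutrophil peroxidase, which was named for this match, at -0.27 ± 0.11 (adjusted p = 0.0480 and 0.0447). None of the 4 held its call with each array left out: without array 3 the adjusted p was 0.0656 for Fcgr4, 0.105 for Prtn3, 0.151 for C1qc and 0.134 for Mpo.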

How the data were processed

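The deposited table holds 1 log ratio per probe and array, taken here as log2; per the labels, channel 1 (Cy5) held the GATA-3 tumor and channel 2 (Cy3) the control tumor. For the scanner, background correction, normalization and log base, the sources used here say nothing. Intensities were not used here, so dim or saturated probes are unknown; precision is limited by having 3 arrays. The platform annotation gave 1 symbol to 22973 of 38976 probes and none to the other 16003; 0 probes had several. Each array was centred on its median (deposited medians -0.02 to -0.07), probes of a gene were averaged, 1 probe with a missing value was left out, and limma 3.58.1 (R 4.3.3; intercept only, moderated by eBayes) tested means against 0, Benjamini-Hochberg adjustment covering every row. The fit was tested on simulated data. The members and lists were chosen with earlier results of these data known. Named were all members, the 3 genes nearest to Spi1 by Euclidean distance, up to 4 genes of smallest p per list, and any gene of the partner factor, CSF, Tyrobp and complement lists. Arrays are numbered in accession order; the numbers are names only. Alternatives covered centring, scaling, missing values, variance model, thresholds, sign, probe summary and each array left out.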

Additional observations from a re-analysis of the deposited data

How the results depend on the processing

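Of the 7 genes, 3 passed; the count was 1 to 4 with an array left out, 1 where the mean also had to reach 1 in size, and 1 where every probe had to pass with one sign, a choice made after seeing the data. Of the 12 probes 6 passed, 3 to 8 with an array left out and 3 with that size. Of the 108 list genes 50 passed, 22 to 61 with an array left out and 7 with that size. The share of all gene rows that passed moved too. It was 55.8%, 27.4% to 63.6% with an array left out and 7.37% with that size. For all probes it was 57.3%, 30.2% to 64.8% and 8.23%. In the plain one-sample test, with 2 degrees of freedom per row, 0 of the 7 genes, 0 of the 12 probes and 0 of the 108 list genes passed. Of all gene rows 4 of 31059 passed it, and Spi1 gave an adjusted p of 0.0769. Spi1 kept its sign and call in the other settings run apart from the turned sign. With the sign turned the means were 1.58 for Spi1, -0.66 for Adgre1, 0.11 for Cd14, -0.051 for Lyz2, -0.35 for Mrc1, -0.51 for Msr1 and 0.16 for Tyrobp. Lyz2 also turned, to -0.00283 without centring, -0.34 with the median of probes and -0.47 without probe 4, and ranged from -0.0845 to 0.14 with an array left out. Cd14 ranged from -0.25 to 0.10 and Adgre1 probe 2 from -0.0875 to 0.48 with an array left out. The cause was not tested. Of 67 other named genes past the threshold, leaving out array 3 removed the call of 31, array 2 of 24 and array 1 of 4; uncentred values removed 2. The title prefix could not be fitted as a random block, since limma gives no correlation for 3 arrays in 2 blocks. No paired analysis was possible because every array already holds a ratio of 2 tumors and all arrays form 1 group.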
